A study of Mus musculus with 6 samples.

Results

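The immediate early genes examined here are Fos, Fosb, Jun, Junb, Egr1, Egr2, Ier2, Atf3, Dusp1 and Nr4a1, a set of 10 genes chosen by symbol. Each of the 10 was measured by 1 row of the array whose annotation held that symbol alone, among 19938 genes measured in this way. The study compared whole colon of 3 VilCre;Ihhflox/flox mice (mutants 1 to 3) with that of 3 control mice (controls 1 to 3), 1 Affymetrix array per mouse. Cre in these mice is driven by the villin promoter, which is active in gut epithelium. Ihh encodes Indian hedgehog, a signal that epithelial cells secrete to the tissue around them. Mutant and control of one number were littermates, which gives 3 litters. The labels call the controls wild type and do not say which floxed or Cre alleles they carried. The design text gives postnatal day 12 and the growth protocol days 9 to 12, with no age per mouse. Levels are RMA values on the log2 scale, where 1 unit is a 2-fold difference, and each difference is mutant minus control.

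Immediate early genes are switched on within minutes of a stimulus, without new protein synthesis, by factors that are already in the cell. Growth factors, cytokines, stretch, wounding and tissue handling act through MAP kinases, serum response factor with its Ets partners, and CREB. Fos, Fosb, Jun, Junb and Atf3 encode bZIP proteins that join in AP-1 and related dimers, Egr1 and Egr2 encode zinc finger factors, and Nr4a1 encodes an orphan nuclear receptor. Ier2 encodes a small nuclear protein, and Dusp1 a phosphatase that switches MAP kinases off again. In the gut these genes respond in epithelium, muscle, nerve and immune cells alike, and a whole-colon sample adds all of them up.

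The data behind these values were as follows. Across all rows the arrays correlated with each other by 0.9855 to 0.9936, and mutant 3 had a mean correlation of 0.990 with the other 5, within the range of the other arrays. Ihh was at 8.50, 8.54 and 8.68 in controls and at 8.37, 8.22 and 8.22 in mutants (limma adjusted p = 0.139). Whether its probes lie in the deleted part is not given in the labels. Its target Ptch1 fell by 1.44 ± 0.09 (SE; limma adjusted p = 0.000493, and 0.0628 with all rows of the table in the fit). The mean of 12 epithelial markers was 11.1 to 11.2 in both groups, but single markers differed. Krt18 rose by 0.60 ± 0.08 (limma adjusted p = 0.00774), and the other 11 did not pass. Among these 11, Krt20 was lower in the mutant in all 3 litters, at -0.43 ± 0.11 (limma adjusted p = 0.0837). Of 12 smooth muscle markers 8 fell and of 10 blood vessel markers 6 fell, while 7 of 11 neutrophil markers rose, where 3.77% of all genes passed in either direction and 1.66% rose. In bulk tissue fewer cells of a type and less RNA per cell cannot be told apart. The mean level of 10 small intestinal markers was 7.21 to 7.57 in controls and 7.67 to 7.92 in mutants. Of these 1 passed, Slc10a2, which rose by 1.17 ± 0.16 (limma adjusted p = 0.00915), and 3 were among the dimmest 30% of genes. The mutant was higher in all 3 litters for 6 of the 10, and lower in all 3 for 1, Alpi (-0.59 ± 0.14). Of all 19938 genes 3747 were higher and 3411 lower in all 3 litters. Xist, the noncoding RNA of the inactive X chromosome, was at 11.96 in control 1, at 12.03 in mutant 2, at 11.92 in mutant 3 and between 5.83 and 6.41 in mutant 1 and controls 2 and 3. Sex is not in the labels, and by this marker the littermates differed in every litter, the other way round in litter 1.

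The table of RefSeq promoter windows used here (GRCm38.p6) held 8 of the 10 genes, reaching from 250 bases before the start site to 50 after it. Egr1 and Ier2 were not matched in it. The windows were searched on both strands for the letters of the CREB site (CRE, TGACGTCA), its core TGACG, which lies inside the CRE, the CArG box of serum response factor, the AP-1 site TGANTCA and the TATA box TATAAA. The core TGACG was present for 7 of 8 genes, against 23% of 27025 genes in the table (20.8% of 32851 windows, since a gene can have several). The CRE was present for Dusp1 alone (2.03% of genes in the table) and the CArG box for Egr2 alone (1.81%). The letters of the TATA box were present for Fos and Junb (15.7%) and the AP-1 site for none (8.97%). The TATAAA letters began at -33 from the start site in Fos and at 0, the start site itself, in Junb. A match describes the letters and is not evidence of binding. Bases beyond these windows were not searched, so a missing match does not mean that a gene lacks the site. The 250 bases before the start site are printed for the 3 genes that were far higher in mutant 3 and hold the core in different numbers (Nr4a1, Fos, Atf3), for Dusp1, which holds the CRE, and for Jun, which holds no match and whose value in mutant 3 lay within the control range. Junb holds the core as well, and its difference in litter 3 was 0.13. Capitals mark the matches on either strand.
Nr4a1, chr15:101266596-101266845, plus strand: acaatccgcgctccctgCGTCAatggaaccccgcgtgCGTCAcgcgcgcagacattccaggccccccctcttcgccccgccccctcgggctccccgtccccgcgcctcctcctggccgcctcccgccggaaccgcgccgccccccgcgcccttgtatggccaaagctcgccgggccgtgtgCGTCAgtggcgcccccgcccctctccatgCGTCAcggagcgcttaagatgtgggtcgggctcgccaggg
Fos, chr12:85473640-85473889, plus strand: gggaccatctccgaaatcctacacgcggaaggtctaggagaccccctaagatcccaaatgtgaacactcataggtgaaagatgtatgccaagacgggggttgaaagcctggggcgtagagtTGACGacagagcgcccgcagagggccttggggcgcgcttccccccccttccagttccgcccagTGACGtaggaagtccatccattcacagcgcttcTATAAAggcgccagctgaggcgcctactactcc
Atf3, chr1:191183334-191183583, minus strand: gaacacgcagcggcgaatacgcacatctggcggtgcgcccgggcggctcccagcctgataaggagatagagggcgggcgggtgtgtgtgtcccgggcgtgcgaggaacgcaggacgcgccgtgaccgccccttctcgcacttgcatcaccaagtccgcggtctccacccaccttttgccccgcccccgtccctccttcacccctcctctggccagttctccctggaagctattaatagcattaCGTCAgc
Dusp1, chr17:26508473-26508722, minus strand: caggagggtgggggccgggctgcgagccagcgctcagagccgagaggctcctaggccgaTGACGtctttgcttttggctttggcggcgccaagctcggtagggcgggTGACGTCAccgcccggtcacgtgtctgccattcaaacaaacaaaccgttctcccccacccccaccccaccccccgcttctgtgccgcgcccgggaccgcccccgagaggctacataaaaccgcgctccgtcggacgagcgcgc
Jun, chr4:95052223-95052472, minus strand: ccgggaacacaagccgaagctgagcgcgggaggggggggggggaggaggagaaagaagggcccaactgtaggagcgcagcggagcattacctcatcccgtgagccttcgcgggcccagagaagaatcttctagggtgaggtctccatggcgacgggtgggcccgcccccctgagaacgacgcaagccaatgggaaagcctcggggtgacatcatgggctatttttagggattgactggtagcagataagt

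In the comparison of mutants with controls, 0 of the 10 immediate early genes passed the test (limma with the litter as a block, adjusted p under 0.05 over 19938 genes), where 3.77% of all genes passed in either direction and 1.66% were higher in mutants. An unadjusted p under 0.05 was reached by 3 of the 10, Nr4a1, Egr2 and Egr1, and by 3008 of all 19938 genes. The median of the 10 log2 differences was 0.32, beside 0.01 over all genes. The groups did not overlap for 2 genes, Nr4a1 and Egr2, both higher in mutants, where 19.8% of all genes had groups that did not overlap. The mutant was the higher littermate in all 3 litters for the same 2 genes, against 18.8% of all genes. Both counts, 2 of 10, are near those shares. Mutant 3 had the highest value of the 6 mice for 9 of the 10 genes, Jun being the exception, against 16.2% of all genes.

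**Figure D1:**
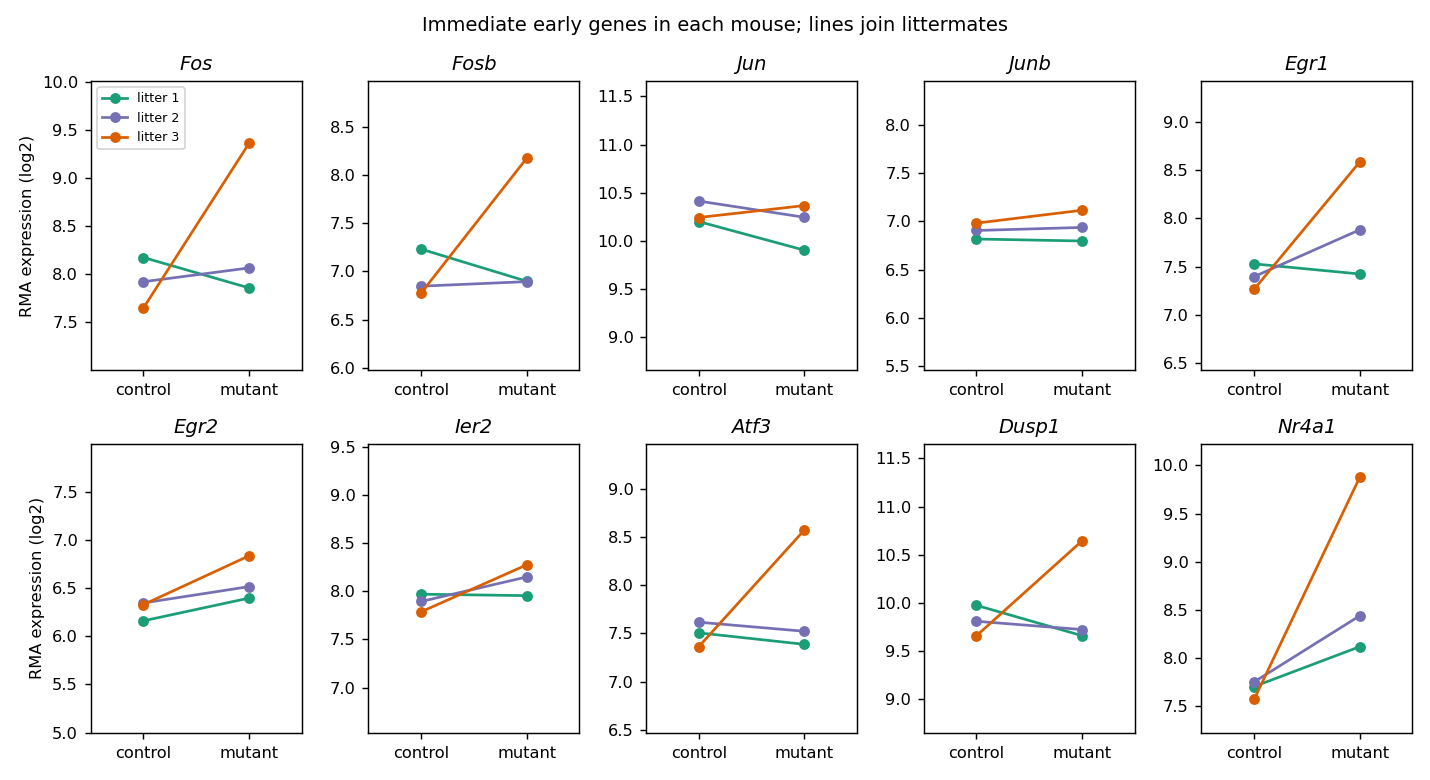
RMA expression (log2, vertical axis, the same height in each panel) of the 10 immediate early genes in each of 6 mice, with lines joining the control and the mutant of a litter. Mutant 3 stands far above the other 5 mice for Nr4a1, Fos, Fosb, Egr1, Atf3 and Dusp1, while Jun and Junb show no such step.

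Nr4a1, the orphan nuclear receptor also called Nur77, had the largest difference of the 10. It was at 7.71, 7.75 and 7.57 in controls 1 to 3 and at 8.12, 8.44 and 9.88 in mutants 1 to 3. The groups did not overlap, and mutant 3 stood 1.60 above the mean of the other mutants. The littermate differences were 0.41, 0.69 and 2.30, which are 1.33-fold, 1.61-fold and 4.93-fold. Controls had a mean of 7.68 ± 0.09 and mutants of 8.81 ± 0.94 (SD, n = 3 in either group), a difference of 1.13 ± 0.31 (SE, 95% interval 0.42 to 1.85). It did not pass (limma adjusted p = 0.102). Without litter 3 the difference was 0.55 and passed (limma adjusted p = 0.0443), and without litter 2 it was 1.36 (adjusted p = 0.00233). Without mutant 3 alone, in a fit with no litter block, it was 0.60 (limma adjusted p = 0.0452). Over the 12 other settings tried, the adjusted p ran from 0.00233 to 0.422 and the difference was above 0 in each.

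Egr1, the zinc finger factor most used as a readout of MAP kinase activity, was at 7.53, 7.40 and 7.27 in controls and at 7.42, 7.88 and 8.59 in mutants. Mutant 1 lay within the control range, and mutants 2 and 3 lay above it. Littermates differed by -0.11, 0.49 and 1.32. The mean difference was 0.57 ± 0.22 (SE, 95% interval 0.05 to 1.08) with limma adjusted p = 0.275. Egr2, its relative, known for its part in myelination and in lymphocytes, was at 6.16, 6.35 and 6.33 in controls and at 6.40, 6.51 and 6.83 in mutants. The groups stood apart by a narrow margin, 6.35 for the highest control and 6.40 for the lowest mutant. The difference was 0.30 ± 0.09 (SE, 95% interval 0.09 to 0.52), which did not pass (limma adjusted p = 0.1498).

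Fos, the partner of Jun in the classical AP-1 dimer, was at 8.17, 7.92 and 7.65 in controls and at 7.86, 8.07 and 9.36 in mutants. Mutants 1 and 2 lay among the controls, and mutant 3 stood 1.44 above the control mean. Littermate differences were -0.32, 0.14 and 1.71, and the mean of 0.51 ± 0.32 (SE, 95% interval -0.23 to 1.25) did not pass (limma adjusted p = 0.544). Fosb, a close relative of Fos that lasts longer in stimulated cells through a truncated form, gave the same picture. It was at 7.23, 6.85 and 6.78 in controls and at 6.90, 6.89 and 8.17 in mutants. Its mean difference was 0.37 ± 0.28 (SE; limma adjusted p = 0.639), made of -0.33 in litter 1, 0.05 in litter 2 and 1.398 in litter 3.

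Jun and Junb encode the other side of the AP-1 dimer. Jun was at 10.20, 10.41 and 10.24 in controls and at 9.91, 10.25 and 10.37 in mutants, so mutant 3 lay inside the control range. Its difference was -0.11 ± 0.10 (SE, 95% interval -0.35 to 0.12; limma adjusted p = 0.711). Junb was at 6.82, 6.91 and 6.98 in controls and at 6.80, 6.94 and 7.12 in mutants. Mutant 3 was the highest mouse for Junb too, by a small margin. The Junb difference was 0.05 ± 0.08 (SE, 95% interval -0.14 to 0.24; limma adjusted p = 0.878).

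Atf3, a bZIP repressor induced by many kinds of stress, was at 7.51, 7.62 and 7.36 in controls and at 7.39, 7.52 and 8.57 in mutants. Only mutant 3 lay outside the control range, and the mean difference of 0.33 ± 0.23 (SE, 95% interval -0.21 to 0.88) did not pass (limma adjusted p = 0.613). Ier2 was at 7.97, 7.89 and 7.79 in controls and at 7.95, 8.15 and 8.27 in mutants, with a difference of 0.24 ± 0.11 (SE, 95% interval -0.01 to 0.49; limma adjusted p = 0.346). The lowest Ier2 mutant lay just below the highest control. Dusp1, the phosphatase that ends MAP kinase signalling and that glucocorticoids also induce, was at 9.98, 9.81 and 9.66 in controls and at 9.66, 9.73 and 10.64 in mutants. Mutants 1 and 2 were below the middle control and mutant 3 was above all, which gave 0.19 ± 0.22 (SE, 95% interval -0.31 to 0.70; limma adjusted p = 0.790).

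Seen litter by litter, the 10 genes went different ways. In litter 1 the mutant was the higher littermate for 2 of the 10, in litter 2 for 7 and in litter 3 for all 10. Of all 19938 genes the mutant was the higher for 10196, 9965 and 10293 in litters 1, 2 and 3. The median littermate difference of the 10 was -0.11, 0.10 and 1.10 in litters 1, 2 and 3, beside medians between 0.00 and 0.01 over all genes. A difference above 1, or 2-fold, was found in litter 3 for 5 of the 10 genes (Nr4a1, Fos, Fosb, Egr1 and Atf3), where 0.461% of all genes exceeded it. In litters 1 and 2 it was found for 0 of the 10, where 0.446% and 0.316% of all genes exceeded it. Ranked among 19938 genes by the difference in litter 3, Nr4a1 was at 6, Fos at 20, Fosb at 43, Egr1 at 49, Atf3 at 58 and Dusp1 at 96. Dusp1, at 0.98, was just below the 2-fold mark. Egr2 and Ier2 followed at ranks 434 and 467, and Junb and Jun at 4647 and 4951. A single litter has no replicate, so these ranks describe 2 mice and carry no test.

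**Figure D2:**
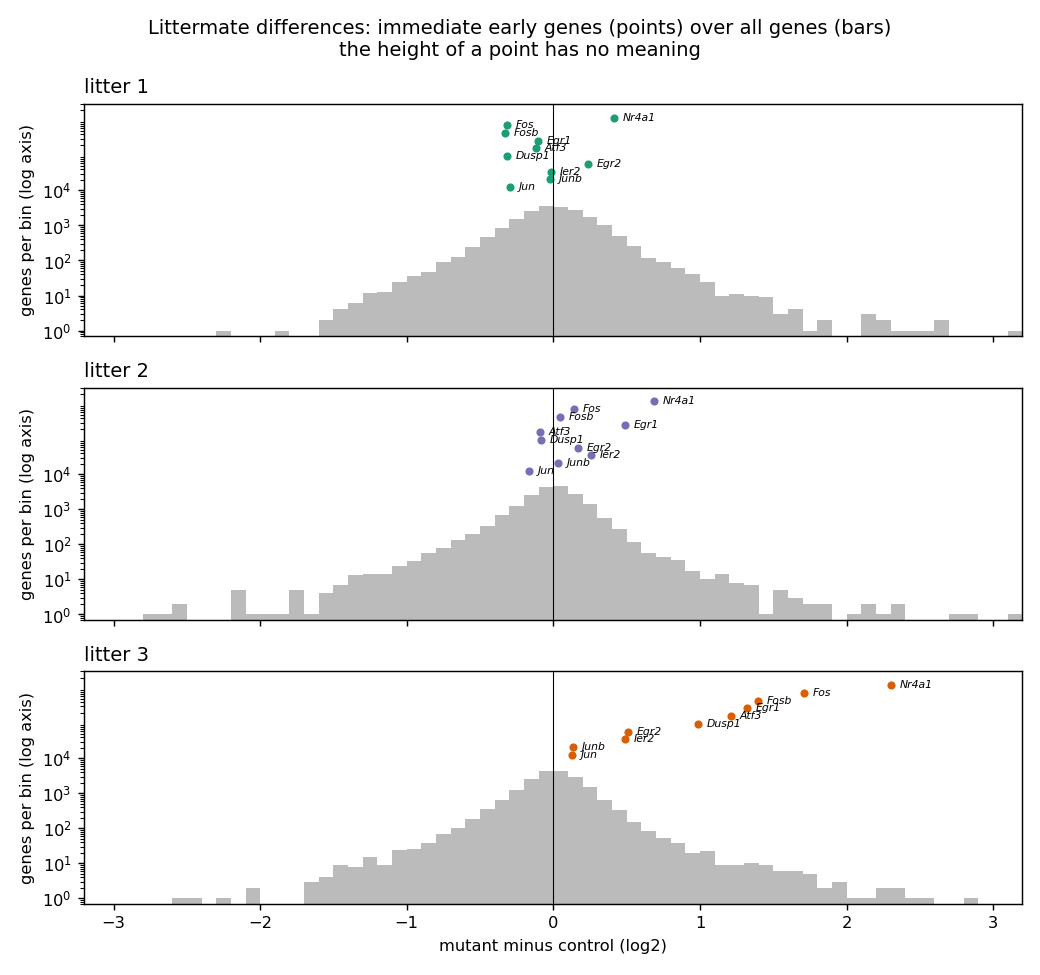
Littermate differences (mutant minus control, log2, horizontal axis) in litters 1 to 3, with grey bars for the number of genes per bin of 0.1 on a log axis and points for the 10 immediate early genes, whose height has no meaning. The points lie between -0.33 and 0.41 in litter 1 and between -0.17 and 0.69 in litter 2, and reach 2.30 in litter 3, and 4, 5 and 4 genes fall outside the axis.

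Part of the litter 3 difference came from its control. Control 3 was the lowest of the 3 controls for 7 of the 10 genes, against 30.3% of all genes. Set against the mean of the 3 controls, mutant 3 was higher by 2.20 for Nr4a1, 1.44 for Fos, 1.22 for Fosb, 1.19 for Egr1, 1.08 for Atf3 and 0.83 for Dusp1. The mean of mutants 1 and 2 minus that of the controls was 0.60 for Nr4a1, 0.26 for Egr1, 0.18 for Egr2 and 0.17 for Ier2. For the other 6 genes it lay between -0.21 and 0.05.

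With litter 3 left out, the difference changed sign for Fos (-0.09), Fosb (-0.14), Atf3 (-0.11) and Dusp1 (-0.20), and was 0.19 for Egr1. For Egr2 it was 0.20 and for Ier2 0.12. Without litter 1 the values were 0.92 for Fos, 0.72 for Fosb, 0.90 for Egr1, 0.56 for Atf3 and 0.45 for Dusp1. In that limma fit 0 of the 10 passed and 6 had an unadjusted p under 0.05, as did 3493 of all 19938 genes.

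**Figure D3:**
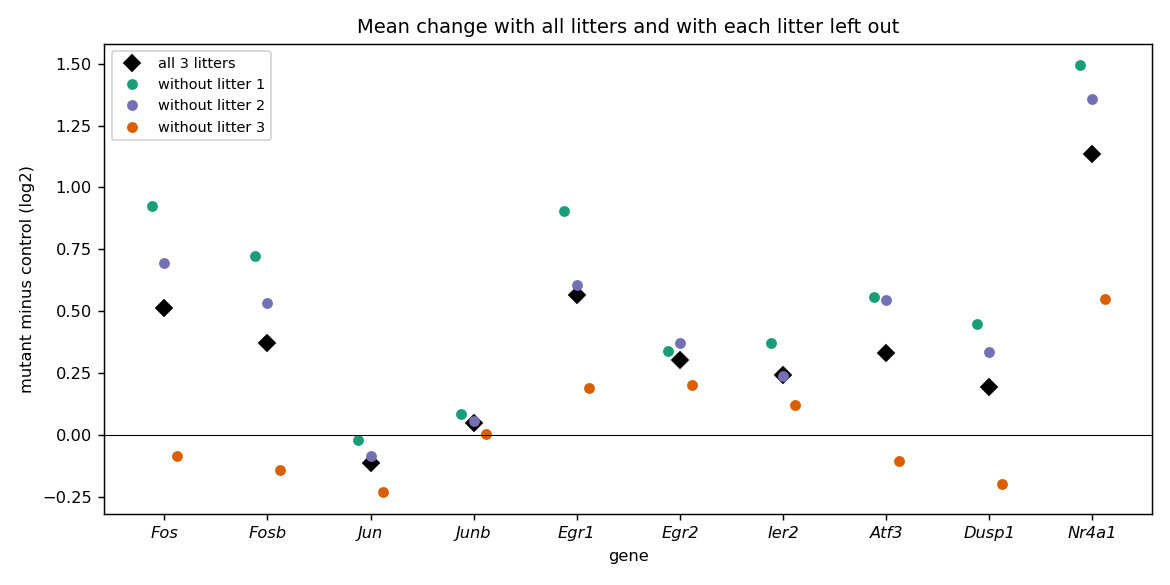
Mean difference between mutant and control (log2) of each immediate early gene with all 3 litters (black diamonds) and with 1 litter left out (coloured points). Without litter 3 the points lie between -0.23 and 0.20 for all genes but Nr4a1, which is at 0.55.

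Cell type markers and heat shock genes were looked at in the same mice. The mean level of 11 neutrophil markers was 5.66 to 5.81 in controls and 6.25, 6.42 and 6.78 in mutants 1, 2 and 3, highest in mutant 3, and 6 of the 11 were among the dimmest 30% of genes. Smooth muscle markers (12 genes) had a mean of 11.2 in all controls and of 10.5, 10.7 and 10.9 in mutants 1 to 3, so mutant 3 was nearest to the controls. Of 14 heat shock genes, which tissue stress also induces, 0 passed, with a median difference of 0.09 in litter 3, and 8 of the 14 had their highest value in mutant 3, against 16.2% of all genes. The part of these cells or of the state of the tissue in the immediate early gene values was not tested. With the Xist level as a covariate beside the litter, the differences were 0.93 ± 0.30 for Nr4a1 and 0.38 ± 0.16 for Egr1 (SE). For Egr2 and Fos they were 0.28 ± 0.09 and 0.28 ± 0.29, and 0 of the 10 passed. An unadjusted p under 0.05 was reached by 2 of the 10 in this limma fit, and by 4303 of all 19938 genes. Xist differed the other way round in litter 1 alone, so this fit gives litter 1 more weight than the main fit. It cannot separate sex from whatever else set litter 1 apart.

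Patterns over the 6 mice were compared by the root mean square distance after centring each gene. The 10 immediate early genes were left out of this ranking. Among the remaining genes the most like Fos were Ccn2 (0.15), Hmox1 (0.18), Thbs1 (0.21), Ccn1 (0.22) and Olfr316 (0.25). Ccn1 and Ccn2 encode matricellular proteins that serum and mechanical stretch induce, Thbs1 the matrix protein thrombospondin 1, and Hmox1 haem oxygenase 1. Ccn2 was at 9.21, 9.17 and 8.97 in controls and at 8.997, 9.02 and 10.73 in mutants. Ccn1 was at 9.28, 8.94 and 8.77 in controls and at 9.11, 9.13 and 11.03 in mutants. Mutant 3 alone was high for both, and neither passed (limma adjusted p = 0.623 and 0.435). Hmox1 was at 7.88, 7.66 and 7.54 in controls and at 8.03, 7.98 and 9.51 in mutants (limma adjusted p = 0.251). Outside the 10, the genes most like Egr1 were Thbs1 (0.14), Cd300lf (0.15), Nr4a3 (0.18), Adamts1 (0.18) and Ifitm6 (0.19). Thbs1 was at 9.84, 9.77 and 9.65 in controls and at 10.09, 10.30 and 11.23 in mutants, without overlap (limma adjusted p = 0.109). These 9 genes were picked from all genes outside the 10 for their likeness over 6 mice, so their likeness is a description. Olfr316, Cd300lf, Nr4a3 and Ifitm6 were among the dimmest 30% of genes. Ccn1, Ccn2 and Nr4a3 also belong to the further lists below and are counted there again. With a litter left out Hmox1, Thbs1, Cd300lf, Adamts1 and Ifitm6 each passed in at least 1 fit (limma), and Nr4a3, Ccn1, Ccn2 and Olfr316 in none.

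Early response genes outside the 10 gave some calls. In 6 further lists with 98 measured genes, 8 rose and 1 fell, 9.18% of them, against 3.77% of all genes. All 9 calls were lost without litter 3, where 452 of the 751 genes called in all remained called. Without the litter block 6 of the 9 and 575 of the 751 remained, and without both the block and mutant 3, 2 of the 9 and 369 of the 751. With all rows of the table in the fit 0 of the 9 and 2 of the 751 remained.

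Among 34 other early response genes 6 rose, 1 fell and 27 did not pass, with a median of 0.19, and 22 had their highest value in mutant 3. Of all genes 1.66% rose, 3.77% passed either way and 16.2% were highest in mutant 3. Socs3, a feedback inhibitor of cytokine signalling, rose by 0.51 ± 0.09 (limma adjusted p = 0.0205). Per1, a clock gene, and Sgk1, a kinase, which glucocorticoids both induce, rose by 0.47 ± 0.08 and 0.44 ± 0.08. Nfkbiz, a nuclear IκB protein, rose by 0.43 ± 0.08 and Myc by 0.48 ± 0.09. Klf4, a factor of differentiated epithelium, fell by 0.50 ± 0.08 (limma adjusted p = 0.0187). The remaining call, Sik1, a salt-inducible kinase gene that CREB induces, was chosen for naming after its value was seen, to complete the count, and rose by 0.47 ± 0.10. The littermate differences of all 7 had one sign in all litters, as for Socs3 (0.42, 0.45 and 0.66) and Klf4 (-0.41, -0.58 and -0.51). The calls were made from these same differences, so the shared sign is a description and no further support. Without litter 3 their limma adjusted p was 0.102 for Socs3, 0.127 for Per1, 0.172 for Sgk1, 0.162 for Nfkbiz, 0.0883 for Myc and 0.0610 for Klf4. Without litter 2 it was 0.0838 for Nfkbiz and 0.115 for Myc, and with the mean of its rows Socs3 was at 0.31 (adjusted p = 0.103).

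Of 6 further Egr and Nr4a genes and Egr corepressors, 1 rose, where 1.66% of all genes rose. Nr4a2, a relative of Nr4a1, was at 6.53, 6.73 and 6.68 in controls and at 6.84, 7.10 and 7.29 in mutants, and rose by 0.43 ± 0.09 (limma adjusted p = 0.0450). It missed the threshold under 8 of 12 other settings, with adjusted p = 0.0501, 0.0550 and 0.264 without litters 1, 2 and 3 and 0.0954 without the litter block. Nr4a3, the other member of this receptor family, was at 5.41, 5.47 and 5.42 in controls and at 5.48, 5.67 and 6.23 in mutants and did not pass (limma adjusted p = 0.265). All 3 Nr4a genes were highest in mutant 3, against 16.2% of all genes, and had no overlap between groups, against 19.8%. Nr4a3 was among the dimmest 30% of genes. Of 11 other AP-1 family genes 0 passed, with Jund at -0.30 ± 0.12 and Fosl1 at 0.21 ± 0.09. Of the 11, 2 had an unadjusted p under 0.05 (limma), against 3008 of all 19938 genes. With the Xist covariate, which gives litter 1 more weight, Jund was at -0.40 and passed (limma adjusted p = 0.0336). The littermate differences of Jund were -0.66, -0.07 and -0.17 in litters 1 to 3.

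Of 16 feedback genes (MAP kinase phosphatases, Sprouty genes and others) 1 rose, with a median of 0.01, where 1.66% of all genes rose. Dusp4, a nuclear phosphatase related to Dusp1, was at 6.49, 6.59 and 6.45 in controls and at 6.84, 7.30 and 7.17 in mutants. It rose by 0.59 ± 0.10 (limma adjusted p = 0.0202, and 0.0635 without litter 3). Dusp10, which acts on p38 and JNK kinases, was at -0.38 ± 0.11 and did not pass (limma adjusted p = 0.130), while without litter 3 it was at -0.55 and passed (adjusted p = 0.0366). Of 17 kinases and factors upstream of the immediate early genes 0 passed, and their median was -0.06. Of the 17, 5 had an unadjusted p under 0.05 (limma), against 3008 of all 19938 genes. The Ets factors Elk3 and Elk1, which join serum response factor, were at -0.32 ± 0.09 and -0.25 ± 0.08, below 0 in each litter. With the Xist covariate Elk3, whose littermate differences were -0.49, -0.26 and -0.21, passed at -0.37 (limma adjusted p = 0.0400). Of 14 heat shock genes 0 passed, with Bag3 at -0.22 ± 0.09 and Hspb8 at -0.31 ± 0.15. Of the 14, 1 had an unadjusted p under 0.05 (limma), against 3008 of all 19938 genes. With the Xist covariate, which gives litter 1 more weight, Hspb8 passed at -0.44 (limma adjusted p = 0.0317). The littermate differences of Hspb8 were -0.78, -0.17 and 0.03 in litters 1 to 3.

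**Figure D4:**
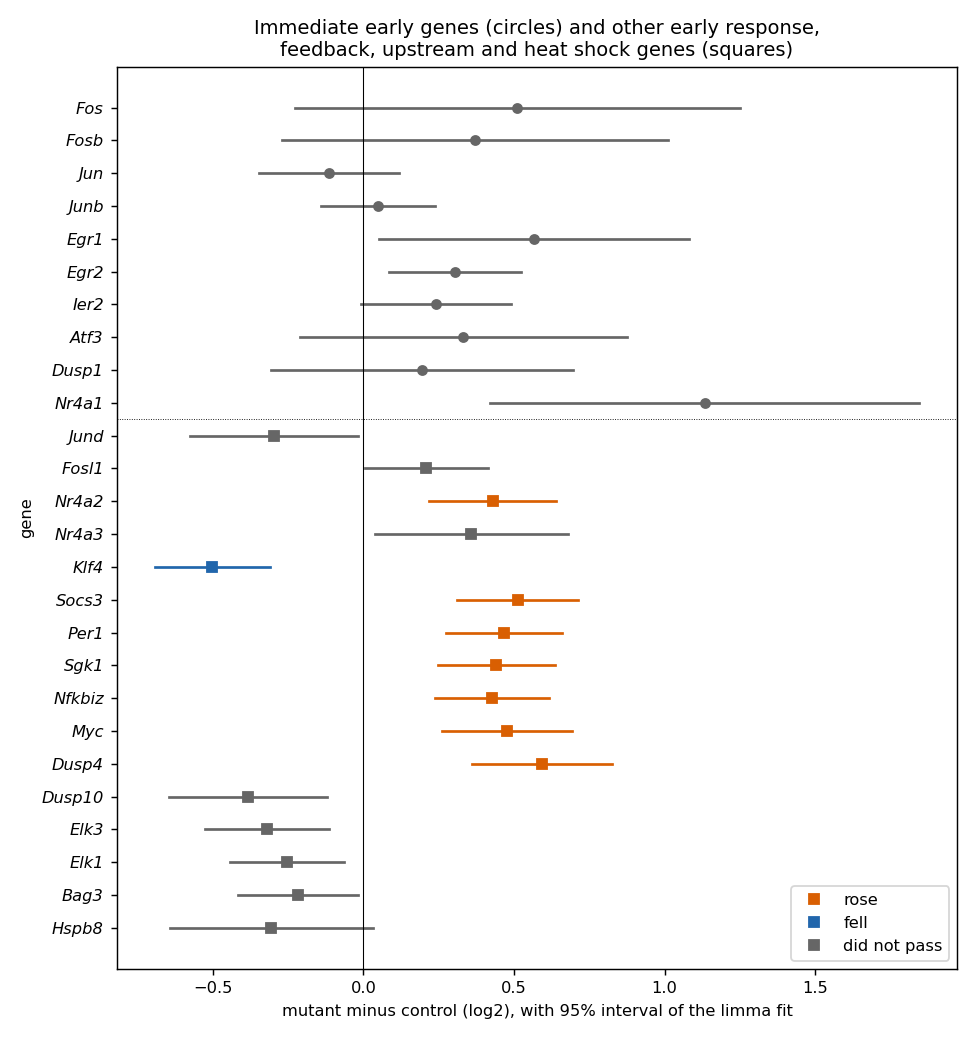
Difference between mutant and control (log2) with its 95% interval in the limma fit, for the 10 immediate early genes (circles) and the named genes of the further lists (squares), coloured by call. The intervals of Fos, Fosb, Egr1, Atf3, Dusp1 and Nr4a1 are wide. Nr4a2, Socs3, Per1, Sgk1, Nfkbiz, Myc and Dusp4 rose while Klf4 fell.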

How the data were processed

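The values are the log2 expression levels deposited by the authors for 35557 array rows and 6 mice, made with RMA per the submitters' processing notes. No source used here gives its version or the genome build. Gene symbols came from the platform annotation. Of these rows 21789 had 1 gene symbol, 1621 several and 12147 none here. The highest-mean row stood for each of the 999 genes that had several, which left 19938 genes, and 4 older symbols of the lists were updated through RefSeq synonyms. Mutants were compared with controls in R 4.3.3 with limma 3.58.1 (lmFit and eBayes, two-sided, Benjamini-Hochberg over 19938 genes, threshold 0.05), with the litter as a fixed block because the design text pairs littermates. As a check of the pairing, the correlation of littermates' deviations was 0.0128, 0.00516 and 0.0613 in litters 1 to 3. The pairing is therefore taken from the design text alone. The fit has 2 residual degrees of freedom per gene and a prior of 5.85. Fits with a litter left out or with Xist as a covariate leave fewer residual degrees of freedom. The prior was 5.12, 18.3 and 11.6 without litters 1, 2 and 3. Errors are standard errors of the fit unless SD is named, and all p-values of genes come from this fit or a named alternative. Precision is limited by 3 arrays per group.

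The scripts were tested on simulated data. The 10 genes and all gene lists were chosen with earlier results of these data known. Named were the 10 genes and Ihh, Ptch1 and Gli1. Of a further list up to 6 called genes were named, or otherwise its 2 with the smallest p. Up to 3 markers of a cell type could be named by this rule, and only epithelial and small intestinal ones are printed. Also named were the 5 genes outside the 10 nearest to Fos and to Egr1. The 2-fold mark per litter and the counts of single mice, the promoter motifs, the promoters printed and the update of older symbols were chosen after the values were seen. Gli1 fell by 0.78 ± 0.08. Enteric neuron and glia markers had 0 calls among 10 genes and red blood cell markers 1 among 2, where 3.77% of all genes passed. A further 2 of 12 listed enteric and 5 of 7 listed red blood cell markers had no row of their symbol alone. Alternatives were no block, eBayes with trend and robust, no dim genes, quantile normalization, median centring, mean of rows, all rows, and each litter left out. Leaving out mutant 3 in a fit with no block and adding Xist as a covariate were chosen after seeing the data.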

Additional observations from a re-analysis of the deposited data

How the results depend on the processing

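The count of immediate early genes that passed was 0 under 9 of 12 alternatives and ranged from 0 to 1 with a litter left out, the 1 being Nr4a1 (without litter 2, without litter 3, and without mutant 3 and the block). Without the replicate block the count was 0, and 638 of all genes passed, against 751 with the litters paired. In that limma fit 4 of the 10 had an unadjusted p under 0.05, as did 2858 of all 19938 genes. Over all genes 2 passed with all rows of the table in the fit, where the prior degrees of freedom were 3.01 against 5.85 (the cause was not tested), 1230 with the Xist covariate, 410 without mutant 3 and without the replicate block together, and between 546 and 798 with a litter left out. The differences of Fos, Fosb, Junb, Atf3 and Dusp1 changed sign in at least 1 setting without litter 3 or mutant 3. With a litter or mutant 3 left out they ranged from -0.086 to 0.92 for Fos, -0.14 to 0.72 for Fosb, -0.035 to 0.083 for Junb, -0.11 to 0.56 for Atf3 and -0.20 to 0.45 for Dusp1. Of the other genes named, Ccn2 (-0.18 to 0.81) and Olfr316 (-0.17 to 0.72) did so too. Scaling changed no direction among the 10. With 3 arrays per group, and no detection call used here, small differences of dim genes are beyond what these data resolve.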
